A study of Mus musculus with 12 samples.

Results

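Platelets carry stored proteins and small molecules in granules. The genes described here are 10 platelet genes grouped as granule cargo, most of which encode proteins stored in granules or set in their membrane: Pf4, Ppbp, Vwf, Thbs1, Selp, Mmrn1, Treml1, Nrgn, Pdgfb and Slc6a4. They were taken by gene symbol after the Ensembl gene identifiers of the count tables had been matched to the mouse annotation, and all 10 were found among 46603 identifiers. RNA-seq counts were available for 12 libraries from C57/Bl6 mice aged 8 months. The mice were either wild type (WT) or knockout (KO) for NM1, nuclear myosin 1, a nuclear form of the motor protein encoded by Myo1c. By label, 3 WT and 3 KO libraries came from blood drawn at the submandibular vein. The other 3 WT and 3 KO libraries came from the tip of the spleen, a piece of about 5 mm3. The labels name no agent and no treatment. They number the libraries from 01 to 04 within a genotype and tissue. They do not say whether blood and spleen of 1 number came from 1 mouse, so p-values measure the spread between these libraries.

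Alpha-granules hold adhesive proteins, chemokines and growth factors, and dense granules hold small molecules such as serotonin and ADP. Both are built in megakaryocytes, the large marrow and spleen cells that shed platelets, and both are released when a platelet is activated. Platelets have no nucleus and carry RNA inherited from the megakaryocyte, so RNA of whole blood or spleen holds transcripts from both. Several of the 10 genes are also known in other cells. Endothelial cells store Vwf and Selp proteins, and make Mmrn1 and Pdgfb, and Thbs1 is made by macrophages and stromal cells.

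The members lie on 8 chromosomes of GRCm38, and each value counts reads over the whole gene. Selp overlaps antisense genes with up to 13 counts in a library, which cannot be told apart from Selp if counting ignored strand; for the other members the overlapping genes had at most 1 count. Pf4 (ENSMUSG00000029373, chr5:90772435-90773383) and Ppbp (ENSMUSG00000029372, chr5:90768518-90770063) encode the chemokines platelet factor 4 and pro-platelet basic protein. They are neighbours on the same strand, 2372 bases apart. Vwf (ENSMUSG00000001930, chr6:125546774-125686679) encodes von Willebrand factor, which tethers platelets to exposed collagen. Mmrn1 (ENSMUSG00000054641, chr6:60924976-60989378) encodes multimerin 1, a carrier of coagulation factor V. Thbs1 (ENSMUSG00000040152, chr2:118111876-118127133) encodes the matrix protein thrombospondin 1. Selp (ENSMUSG00000026580, chr1:164115264-164150026) encodes P-selectin, and Treml1 (ENSMUSG00000023993, chr17:48359916-48367176) the receptor TLT-1. Both are granule membrane proteins that reach the platelet surface on activation. Nrgn (ENSMUSG00000053310, chr9:37544492-37552904) encodes neurogranin, a calmodulin-binding protein best known from neurons. Pdgfb (ENSMUSG00000000489, chr15:79995874-80014977) encodes the B chain of platelet-derived growth factor. Slc6a4 (ENSMUSG00000020838, chr11:76998603-77032340) encodes the serotonin transporter, a plasma membrane protein that supplies the serotonin of dense granules, and lies 1.32 Mb from Myo1c.

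The RefSeq promoter table (GRCm38.p6) held 7 of the 10 genes, all but Vwf, Thbs1 and Pdgfb. The 250 bases before the start site are shown for 5 of them: the chemokine neighbours, Nrgn and Selp, which marked the ends of the range of the 9 members higher in globin-rich libraries, and the serotonin transporter. Sequences run 5′ to 3′ on the gene's own strand, and capitals mark motif matches. The windows are chr5:90772185-90772434 for Pf4 and chr5:90768268-90768517 for Ppbp, both on the plus strand. Nrgn is on the minus strand, at chr9:37552746-37552995. Selp, at chr1:164115014-164115263, and Slc6a4, at chr11:76998347-76998596, are on the plus strand.
Pf4: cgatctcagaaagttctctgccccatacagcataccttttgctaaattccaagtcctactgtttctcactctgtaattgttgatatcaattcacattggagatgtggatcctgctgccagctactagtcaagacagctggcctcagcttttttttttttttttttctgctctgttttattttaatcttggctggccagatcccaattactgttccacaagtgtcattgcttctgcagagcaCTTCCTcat
Ppbp: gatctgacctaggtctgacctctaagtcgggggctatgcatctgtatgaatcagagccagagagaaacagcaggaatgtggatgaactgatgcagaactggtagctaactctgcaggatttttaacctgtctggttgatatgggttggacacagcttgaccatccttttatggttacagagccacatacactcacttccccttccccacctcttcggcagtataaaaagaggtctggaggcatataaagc
Nrgn: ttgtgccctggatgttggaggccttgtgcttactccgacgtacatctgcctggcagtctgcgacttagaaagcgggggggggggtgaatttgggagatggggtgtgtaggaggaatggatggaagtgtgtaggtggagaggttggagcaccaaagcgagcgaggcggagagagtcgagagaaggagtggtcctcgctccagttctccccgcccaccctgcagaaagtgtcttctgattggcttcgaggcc
Selp: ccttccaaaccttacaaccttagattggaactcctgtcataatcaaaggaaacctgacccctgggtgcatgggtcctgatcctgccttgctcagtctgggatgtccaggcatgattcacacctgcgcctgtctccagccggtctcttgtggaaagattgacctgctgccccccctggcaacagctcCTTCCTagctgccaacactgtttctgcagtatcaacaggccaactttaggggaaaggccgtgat
Slc6a4: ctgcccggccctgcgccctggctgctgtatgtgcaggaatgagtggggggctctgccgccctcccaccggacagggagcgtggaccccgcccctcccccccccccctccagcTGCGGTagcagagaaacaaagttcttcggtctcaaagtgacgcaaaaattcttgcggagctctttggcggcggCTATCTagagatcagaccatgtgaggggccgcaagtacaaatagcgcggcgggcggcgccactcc
Both strands were searched for the letters of factors known in megakaryocytes. GATA was searched as AGATAA with the related form AGATAG, and as TGATAA with the related form TGATAG. ETS was searched as AGGAAG and in its other form CGGAAG, and RUNX as TGTGGT and in its other form TGCGGT. The AP-1/NF-E2 core was searched with the letters TGAGTCA. No 2 of these motifs overlapped in the members. Pf4 and Selp each held 1 ETS match, on the minus strand. Slc6a4 held a GATA match and a RUNX match, and Mmrn1 held a GATA match. Thus 2 of 7 members held GATA, 2 of 7 ETS, 1 of 7 RUNX and 0 of 7 AP-1/NF-E2. Among all 32851 promoters of the table, 26.5% held GATA, 39.2% ETS, 18.6% RUNX and 4.46% AP-1/NF-E2. The Mmrn1 window starts inside the annotated gene, because the RefSeq start lies downstream of the GENCODE one.

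The libraries fell into 2 kinds by their globin share, the percent of counts on the 8 globin genes. In 6 globin-rich libraries it was 48.9% to 56.1%, and in 6 globin-poor libraries 0.846% to 5.89%. Wilson 95% binomial intervals were no wider than 0.0319 percentage points to either side, counting error only. The kinds cut across the labels, with 3 WT, 3 KO, 3 blood and 3 spleen labels in each. Globin-rich were blood WT 01, KO 02 and KO 03, and spleen WT 02, WT 04 and KO 03. Totals were 9.32 to 12.1 M counts in globin-rich and 23.1 to 28.2 M in globin-poor libraries. Counts without globin were 4.09 to 5.83 and 21.8 to 27.4 M. Markers of spleen went with the kind and not with the tissue label. Summed CPM (a gene's counts per M counts of its library, globin left out) of 5 red pulp macrophage markers was 21.1 to 63.6 in globin-rich libraries, those labelled spleen included. It was 547 to 873 in globin-poor ones, those labelled blood included. The 7 stromal markers summed to 0.914 to 11.5 and 344 to 904, respectively. The tissue labels therefore go against the markers in 6 libraries, 3 of each label, and "blood-labelled" and "spleen-labelled" are used here only as label names. Myo1c was at 58.5 to 200 CPM in globin-rich and from 134 to 219 CPM in globin-poor libraries. NM1 is 1 product of that gene, so gene-level counts do not check the knockout.

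All members except Pdgfb were higher in every globin-rich library than in every globin-poor one. These groups were made from the data, so the values are a description with no test. The 2 chemokines were among the most abundant. Pf4 CPM in the globin-rich libraries was 417, 382 and 279 in blood WT 01, KO 02 and KO 03, and 684, 729 and 870 in spleen WT 02, WT 04 and KO 03. In the globin-poor libraries it was 70.5, 41.2 and 33.1 in blood WT 03, WT 04 and KO 04, and 47.3, 55.3 and 60.1 in spleen WT 01, KO 01 and KO 04. The kinds did not overlap, and the ratio of their mean CPM was 10.9. For the remaining members, values follow this same order of libraries. Ppbp was at 1070, 1086, 660, 2296, 2305 and 1997 CPM in globin-rich libraries and at 89.1, 88.5, 48.3, 71.8, 109 and 118 CPM in globin-poor ones, a ratio of 18.0. In both chemokines the 3 spleen-labelled globin-rich libraries were the highest of the 12, and blood KO 03 was the lowest globin-rich one.

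Among the adhesive proteins, Vwf was at 622, 605, 292, 969, 900 and 606 CPM in globin-rich and 50.7, 47.7, 40.3, 36.1, 43.4 and 43.4 CPM in globin-poor libraries, a ratio of 15.3. Thbs1 was at 542, 548, 332, 799, 994 and 414 CPM against 44.7, 48.3, 25.5, 59.6, 56.4 and 53.6 CPM, a ratio of 12.6. Both genes were lower in spleen KO 03 than in the other 2 spleen-labelled globin-rich libraries, whereas Pf4 was highest in that library. Mmrn1 ranged from 46.0 to 149 CPM in globin-rich and from 1.94 to 5.20 CPM in globin-poor libraries, a ratio of 27.8. The granule membrane proteins differed in size of ratio. Treml1 ranged from 114 to 394 CPM against 11.5 to 20.5 CPM, a ratio of 16.3. Selp was low throughout, at 6.69, 8.76, 3.19, 14.1, 19.3 and 12.98 CPM in globin-rich and 1.79, 2.73, 1.19, 1.76, 1.86 and 2.02 CPM in globin-poor libraries, and its ratio of 5.73 was the smallest of the 9.

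Nrgn had the largest ratio, 35.9, with 1818, 1673, 1060, 2852, 2681 and 3587 CPM in globin-rich and 75.3, 44.4, 54.5, 77.2, 60.6 and 68.9 CPM in globin-poor libraries. Slc6a4, the serotonin transporter, was at 88.7, 112, 56.1, 266, 285 and 200 CPM against 5.79, 5.76, 3.66, 8.53, 10.9 and 13.2 CPM, a ratio of 21.1. Its spleen-labelled libraries were above its blood-labelled ones within both kinds. Pdgfb went the other way, with 7.72, 4.65, 5.82, 6.31, 3.66 and 6.21 CPM in globin-rich and 10.4, 16.2, 13.8, 24.4, 18.5 and 21.1 CPM in globin-poor libraries. Every globin-rich value was below every globin-poor one, and the ratio was 0.329.

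**Figure D1:**
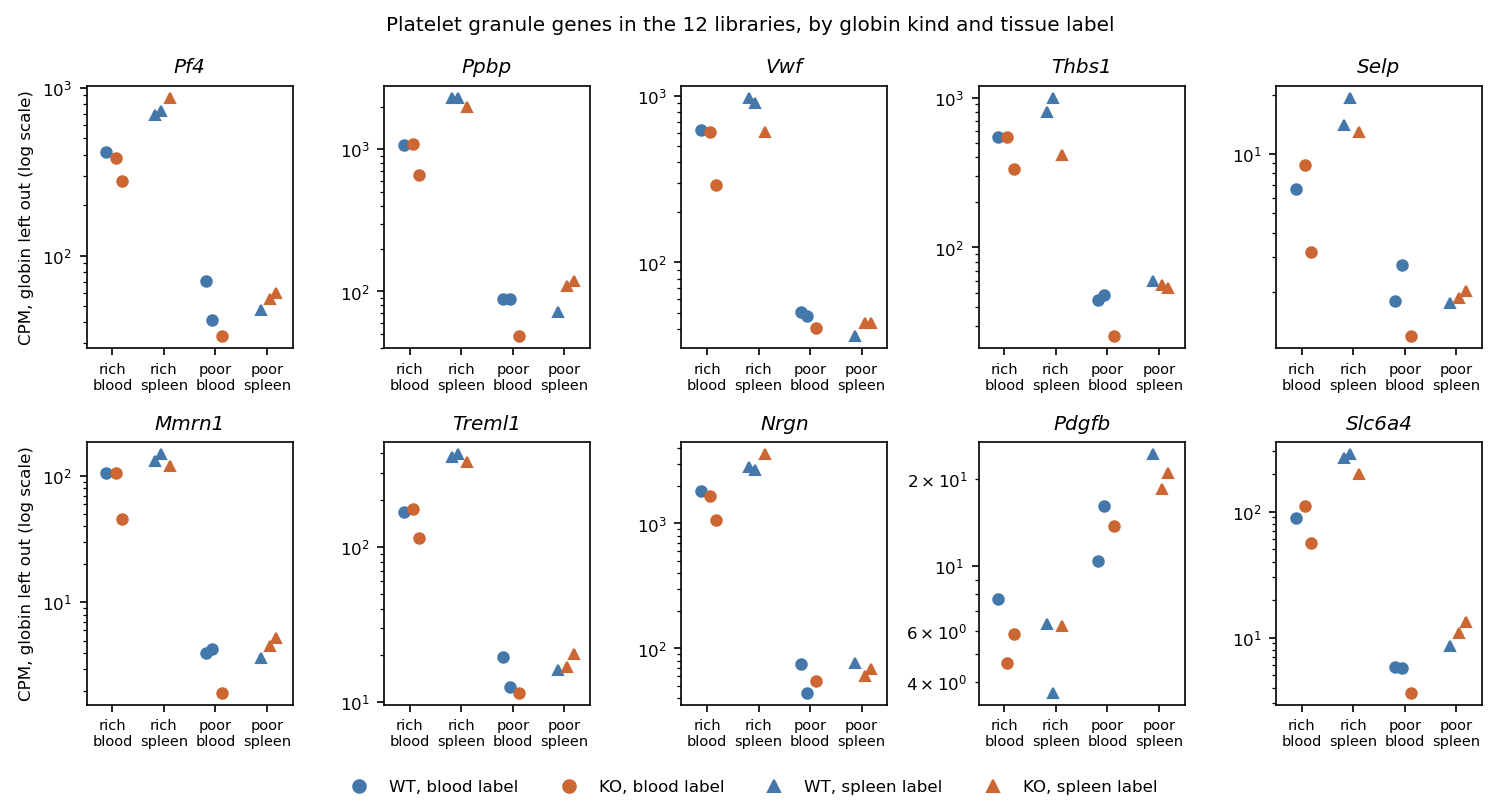
CPM with globin left out (log axis) of the 10 genes in the 12 libraries, grouped on the horizontal axis by globin kind and tissue label; each point is 1 library, blue for WT and orange for KO, circles for blood and triangles for spleen labels. In 9 panels every globin-rich point lies above every globin-poor point, and in the Pdgfb panel every globin-rich point lies lower.

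Thus 9 of 10 members were above in every globin-rich library, where 3.51% of the 14539 genes averaging 1 CPM or more were. In the opposite direction there was 1 of 10, where 49.8% of genes were. The median ratio was 15.8 over the members and 0.446 over those genes. Non-globin red cell markers (6 genes) summed to 44124 to 67638 CPM in globin-rich and from 527 to 7620 CPM in globin-poor libraries. Set against the all-gene median, the members' median ratio was 35.4 and that of Pdgfb 0.739. Cell type markers moved with the same split. The 16 platelet and megakaryocyte markers summed to 2698 to 7995 CPM in globin-rich and from 239 to 401 CPM in globin-poor libraries. The 11 endothelial markers summed to 147 to 276 CPM and 448 to 726 CPM, and none was at 0 throughout either kind. Most of the globin-rich sum was Pecam1, at a mean of 174 CPM against 153 CPM in globin-poor libraries, and Esam, at 42.0 against 27.0 CPM. The other 9 were lower in globin-rich libraries, with means of at most 4.67 CPM there. Of the 11, 7 were below in every globin-rich library, and the median ratio was 0.111. The part of either cell type in the members' values was not tested. In bulk RNA, fewer cells of a type and less RNA per cell cannot be told apart.

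Other alpha-granule cargo shared the pattern only in part. Of 22 further genes, 4 were above in every globin-rich library, where 3.51% of all genes were. In the opposite direction there were 9, where 49.8% of all genes were. The median ratio was 0.801, against 0.446 over all genes. Those above were F5 (coagulation factor V, ratio 42.9), F13a1 (factor XIII A chain, 21.8), Angpt1 (angiopoietin 1, 5.11) and Pros1 (protein S, 3.08). F5 protein is bound by multimerin in the granule. Among those below was Sparc, a matrix protein of stromal cells as well as platelets, at 0.183 to 5.15 CPM in globin-rich and from 241 to 462 CPM in globin-poor libraries.

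**Figure D2:**
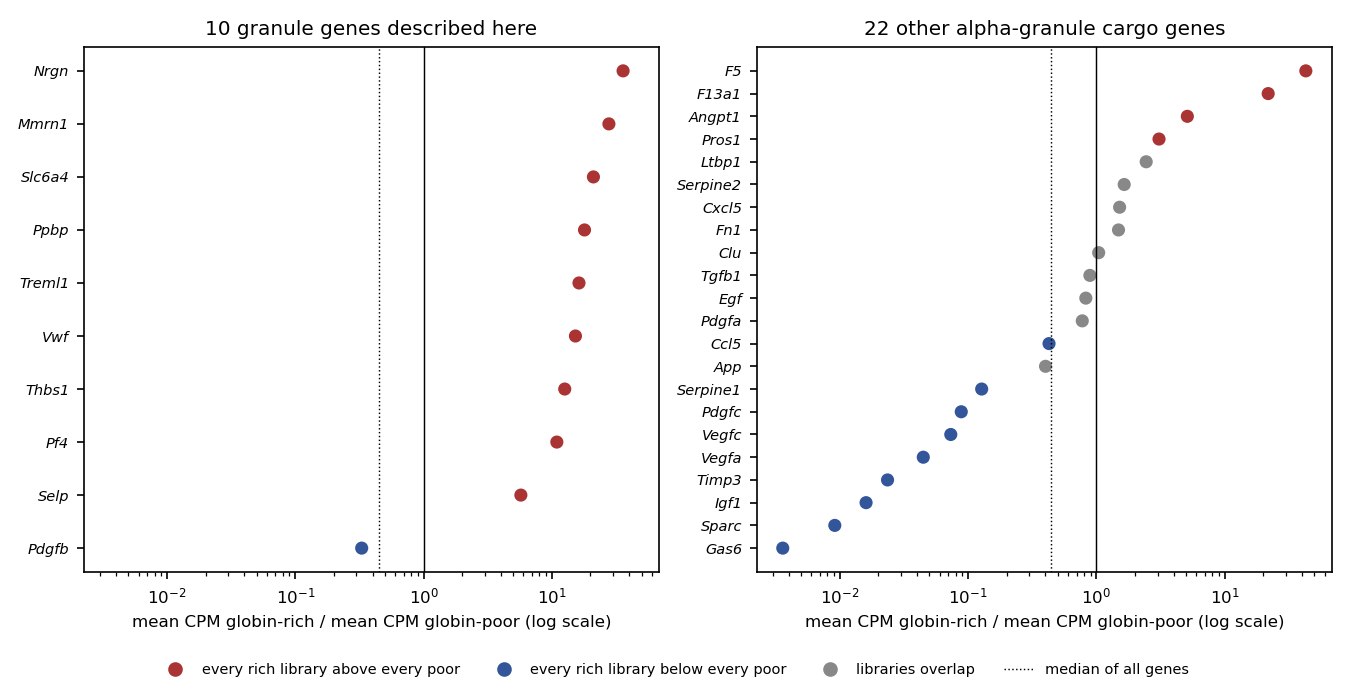
Ratio of mean CPM in 6 globin-rich to 6 globin-poor libraries (log axis) for the 10 genes and for 22 other alpha-granule cargo genes; red and blue mark genes whose libraries do not overlap, grey those that overlap, and the dotted line the median of all genes, 0.446. The 9 red points on the left lie between 5.73 and 35.9. The other cargo genes spread on both sides of 1 and of the dotted line.

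Levels of different genes were compared per length, as counts per kb of exon scaled to the same total in every library (TPM-like, globin left out). In globin-rich libraries the mean was 4452 ± 1708 (SD, n = 6) for Nrgn, 4116 ± 1827 for Ppbp and 2203 ± 867 for Pf4. Nrgn exceeded Ppbp in 4 of 6 libraries, so their order was not settled, while Ppbp exceeded Pf4 in 6 of 6. Treml1 followed at 532 ± 245, apart from Pf4 in range, then Thbs1 at 285 ± 116. Vwf at 119 ± 43.5 and Slc6a4 at 105 ± 59.3 overlapped, with Vwf higher in 4 of 6. Mmrn1 was at 53.2 ± 17.0, well apart from Selp at 6.99 ± 3.64 and Pdgfb at 3.93 ± 1.00, whose order held in 4 of 6. In globin-poor libraries the order began with Ppbp at 221 ± 63.6 and Pf4 at 194 ± 47.7, not settled in 4 of 6, and Nrgn came next at 120 ± 22.3, lower than Pf4 in 6 of 6. Treml1 was at 31.6 ± 6.60 and Thbs1 at 21.8 ± 5.71. Pdgfb, last in globin-rich libraries, stood sixth at 11.5 ± 3.44 per length, above Vwf at 7.45 ± 0.941 in 5 of 6. The lengths merged the exons of all annotated transcripts, 16.1 kb for Vwf and 4.16 kb for Pdgfb. The place of Vwf in both kinds depends on that length, and which transcripts were present was not tested. Slc6a4 at 4.82 ± 2.15, Mmrn1 at 1.84 ± 0.533 and Selp at 1.18 ± 0.355 came last.

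For some members the level relative to platelet markers differed between the kinds. Each member's CPM was expressed as a percent of the summed CPM of the 16 platelet and megakaryocyte markers, none of which is a member. Nrgn was 33.5% to 49.4% of that sum in globin-rich and 14.5% to 23.6% in globin-poor libraries. Mmrn1 was 1.65% to 2.54% and 0.811% to 1.41%. Pf4 went the other way, at 8.94% to 12.0% in globin-rich and 13.5% to 19.8% in globin-poor libraries, as did Selp, at 0.118% to 0.241% and 0.498% to 0.891%. Pdgfb was 0.0458% to 0.216% and 2.92% to 7.47%. For these 5 genes the ranges did not overlap, and for Ppbp, Vwf, Thbs1, Treml1 and Slc6a4 they did. How often genes overall fail to overlap on this scale was not computed, so these 5 genes cannot be set against other genes. The marker sum was higher in globin-rich libraries, so a gene whose CPM rose less than that sum has a lower percent there. The median CPM ratio of all genes was 0.446, so this scaling gives most genes a lower percent in globin-rich libraries. For Pdgfb, lower in CPM as well, the direction follows from that scaling. Pf4 and Selp rose in CPM by less than the sum, so their lower percents do not set them apart from most genes. The CPM ratio of Nrgn to Pf4 does not use the marker sum. It was 3.68 to 4.38 in globin-rich and 1.07 to 1.65 in globin-poor libraries. Within the globin-rich kind, spleen KO 03 stood apart in the adhesive proteins. Its ratio of Thbs1 to Pf4 was 0.476 and of Vwf to Pf4 0.696, against at least 1.17 and 1.04 in the other 5. The summed CPM of 7 neutrophil markers was 4288 in that library and at most 1372 in the other globin-rich ones, and the part of those cells was not tested.

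**Figure D3:**
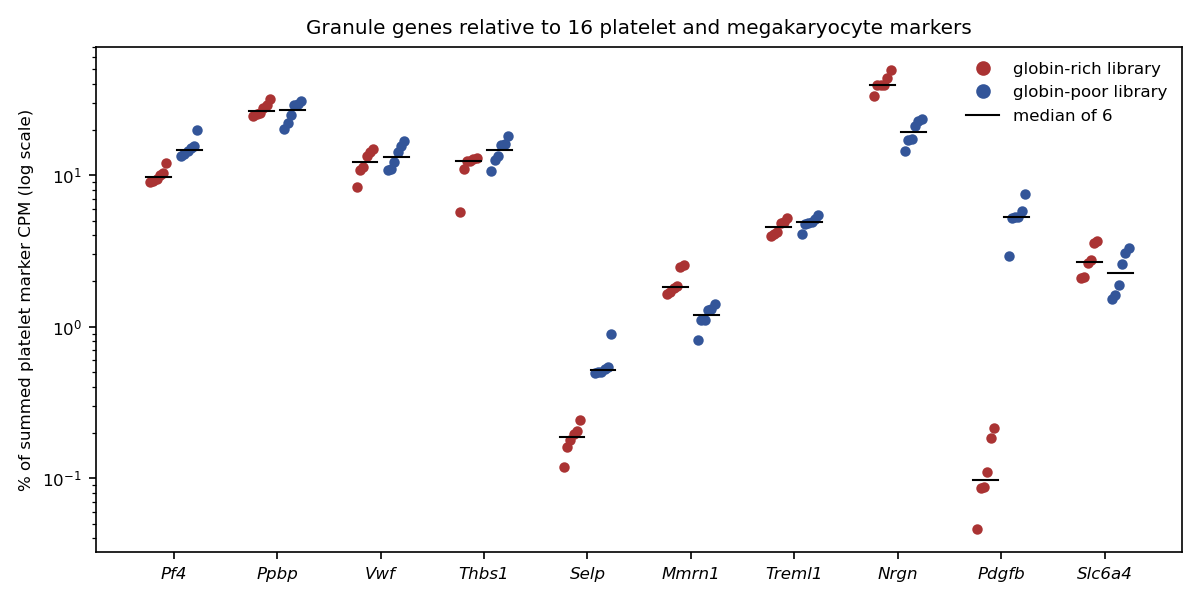
Each gene's CPM as a percent of the summed CPM of 16 platelet and megakaryocyte markers (log axis), 1 point per library, with the median of 6 libraries as a bar. Nrgn and Mmrn1 are higher in globin-rich libraries, Pf4, Selp and Pdgfb are higher in globin-poor ones, and the other 5 genes overlap.

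Within the globin-rich kind, the spleen-labelled libraries had more of most members than the blood-labelled ones, but no member passed the adjusted test. Means were 761 ± 97.0 against 359 ± 71.4 CPM for Pf4 (SD, n = 3 each) and 2199 ± 175 against 939 ± 242 CPM for Ppbp. For Slc6a4 they were 250 ± 44.9 against 85.5 ± 27.8 CPM. The libraries did not overlap between labels in 7 of 10 members, namely Pf4, Ppbp, Selp, Mmrn1, Treml1, Nrgn and Slc6a4, where 3.5% of all genes were above in the same way. In edgeR's quasi-likelihood test with genotype as a term and Benjamini-Hochberg adjustment over 13058 genes, the log2 fold change of spleen over blood label was 1.66 ± 0.32 (SE) for Slc6a4 with an adjusted p of 0.113. It was 1.45 ± 0.26 for Treml1 (adjusted p 0.110) and 1.28 ± 0.25 for Pf4 (adjusted p 0.115). Selp, Ppbp and Nrgn had 1.43 ± 0.39, 1.36 ± 0.36 and 1.21 ± 0.34, Mmrn1 0.75 ± 0.25, Vwf 0.73 ± 0.35, Thbs1 0.53 ± 0.42 and Pdgfb -0.01 ± 0.43. At an adjusted p under 0.05, 0 of 10 members and 0.00766% of genes were called. At an unadjusted p under 0.05 there were 7 of 10 members, against 10.6% of genes. DESeq2 called 5 members and limma-voom 4. Without spleen KO 03, edgeR called 2, Treml1 (adjusted p 0.0127) and Slc6a4 (adjusted p 0.00222); over 13 alternatives the adjusted p ranged from 6.08e-06 to 0.466 for Treml1 and from 6.20e-06 to 0.466 for Slc6a4. The platelet marker sum moved with this split, at 2698 to 4265 CPM in blood-labelled and 7256 to 7995 CPM in spleen-labelled globin-rich libraries.

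In the globin-poor kind the members' fold changes between tissue labels were smaller, while more genes overall differed; the difference between kinds was not tested. Slc6a4 had the largest log2 fold change of spleen over blood label, 0.83 ± 0.32 (adjusted p 0.133). Its means, not adjusted for genotype and scaled by library size only, were 10.9 ± 2.33 against 5.07 ± 1.22 CPM (SD, n = 3 each). Vwf had -0.47 ± 0.19 (adjusted p 0.146). No member was called (0 of 10, against 0.0527% of genes), and 2 of 10 had an unadjusted p under 0.05, below the 29.7% of all genes. The labels did not overlap for Thbs1, Pdgfb and Slc6a4, 3 of 10 members, near the 26.3% of all genes above in the same way. Over the members the median log2 fold change was 0.10, and over all genes 0.03. Without blood KO 04 it was -0.37, and without spleen WT 01 it was 0.49.

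The comparison of genotypes asks whether loss of NM1 goes with a change in these transcripts. In neither kind did a member pass the adjusted test. In globin-rich libraries WT was 1 blood-labelled and 2 spleen-labelled libraries and KO the reverse, so tissue label was a term of the fit. The log2 fold change of KO over WT was below 0 for all 10 members, with a median of -0.54 against -0.03 over all genes. Thbs1 had -0.98 ± 0.42 and Vwf -0.83 ± 0.35 (SE). Means not adjusted for tissue label, scaled by library size only, were 431 ± 109 in KO against 778 ± 227 CPM in WT for Thbs1. For Vwf they were 501 ± 181 against 831 ± 184 CPM (SD, n = 3 each). Mmrn1 had -0.65 ± 0.25. For these 3 of 10 members the unadjusted p was under 0.05, against 7.3% of all genes, and their adjusted p was 0.655. Vwf alone had every WT library above every KO library, 1 of 10 where 4.73% of all genes did. The other 7 members lay between -0.58 ± 0.39 for Selp and -0.28 ± 0.25 for Pf4. At an adjusted p under 0.05, edgeR called 0 members and 0% of genes, while 953 genes had an unadjusted p under 0.05. DESeq2 called 11 genes and limma-voom 0, none a member. Single libraries moved this result in both directions. Without blood WT 01 edgeR called 394 genes, with Thbs1 at -1.80 (adjusted p 0.0112) and Slc6a4 at -1.15 (adjusted p 0.0471) among them, and the members' median was -0.90. Over 13 alternatives the adjusted p ranged from 0.0112 to 1.00 for Thbs1 and from 0.0471 to 1.00 for Slc6a4. Without spleen KO 03 the median was -0.15.

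In globin-poor libraries the members' median log2 fold change of KO over WT was -0.10 and that of all genes 0.00226, with 8 of 10 members below 0. Tissue label was again a term of the fit, and here KO held more of the spleen labels. Thbs1 was again the lowest, at -0.41 ± 0.21 (adjusted p 0.741). Its means, not adjusted for tissue label and scaled by library size only, were 45.2 ± 17.1 CPM in KO against 50.9 ± 7.79 CPM in WT. The fold of those means was 0.888. Vwf was at 0.07 ± 0.19 and Slc6a4 at 0.01 ± 0.32. No member had an unadjusted p under 0.05 (4.73% of all genes did), and in no member were all WT libraries above all KO libraries (0.908% of genes). At an adjusted p under 0.05, edgeR called 0% of genes, while 809 genes had an unadjusted p under 0.05. DESeq2 called 9 genes and limma-voom 0, none a member. The median was 0.30 without blood KO 04 and -0.65 without spleen WT 01.

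Over all 12 libraries, with globin kind and tissue label as terms, all 10 log2 fold changes of KO over WT were again below 0, with a median of -0.56 against -0.05 over all genes. This fit held the same tissue effect for both kinds. The members' median log2 fold change of spleen over blood label was 1.24 in globin-rich and 0.10 in globin-poor libraries. WT held more of the spleen labels among globin-rich libraries, and KO more among globin-poor ones. The part of that imbalance in the genotype fold changes of this fit was not tested. The adjusted p was 0.899 for every member except Pdgfb (0.937). Thbs1 had -0.70 ± 0.22, Selp -0.78 ± 0.31, Vwf -0.64 ± 0.25, Ppbp -0.57 ± 0.26, Mmrn1 -0.56 ± 0.20, Treml1 -0.55 ± 0.24 and Slc6a4 -0.48 ± 0.22. These 7 of 10 members had an unadjusted p under 0.05, against 4.65% of all genes. Pf4 had -0.49 ± 0.24, Nrgn -0.40 ± 0.25 and Pdgfb -0.13 ± 0.23. That count depended on the libraries and the terms. It was 1 without blood KO 03, without spleen WT 02 or without spleen WT 04, ranged from 1 to 8 over all 12 libraries left out in turn, and was 1 with scaling by library size only and 0 without the globin kind term. At an adjusted p under 0.05, 0 of 10 members and 0% of genes were called, while 816 genes had an unadjusted p under 0.05. DESeq2 called 1 gene and limma-voom 0, no member. The members rise and fall together across libraries, so their shared sign is not 10 separate observations. The 16 platelet markers summed to 4182 to 7995 CPM in WT and 2698 to 7256 CPM in KO globin-rich libraries, and in the fit of all 12 libraries all 16 had a log2 fold change below 0, with a median of -0.44 and 4 at an unadjusted p under 0.05. Marker lists of other cells differed in direction in that fit. Of the endothelial markers 10 of 11 were below 0 (median -0.50), of the stromal ones 7 of 7 (median -0.44) and of the non-globin red cell ones 6 of 6 (median -0.51). Below 0 were also 6 of 6 mast cell and basophil markers tested (median -0.48), 4 of 5 red pulp macrophage (-0.17) and 3 of 5 monocyte markers (-0.08). Above 0 were 5 of 5 T cell markers (median 0.11), 3 of 5 B cell (0.06) and 4 of 7 neutrophil markers (0.015). The part of any of these cells in the members' fold changes was not tested.

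**Figure D4:**
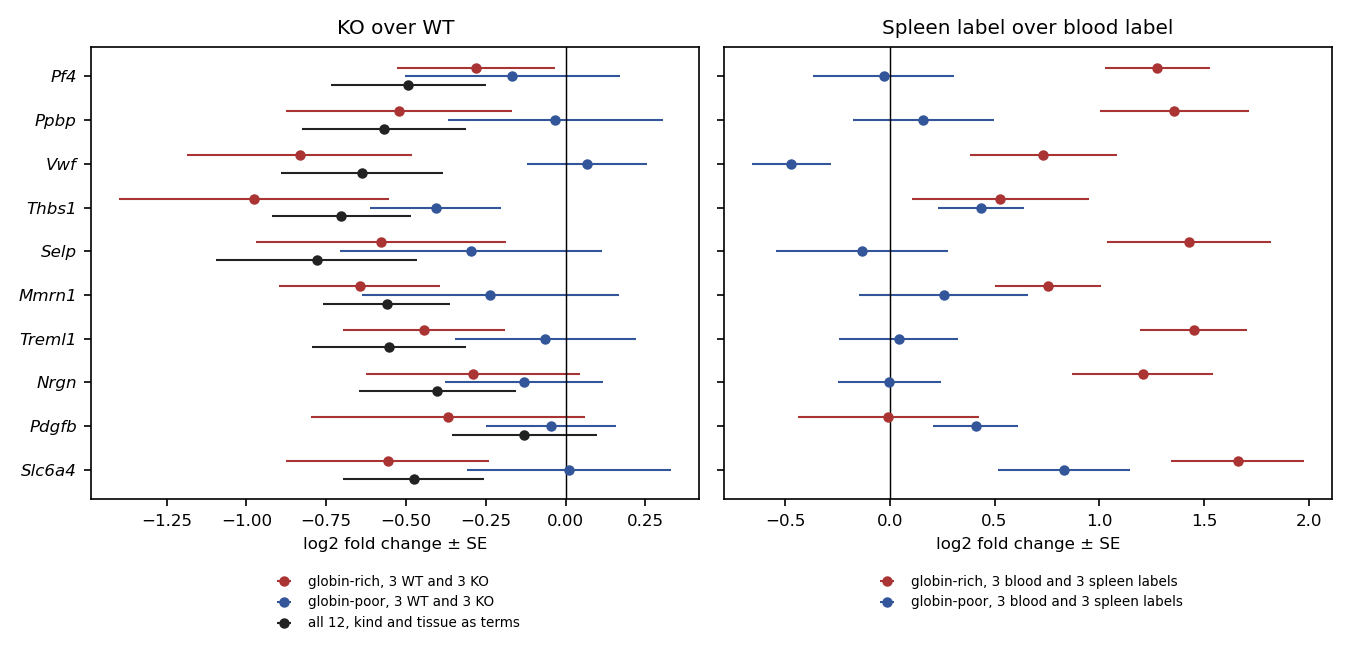
Log2 fold change ± SE from edgeR of KO over WT (left) and of spleen over blood label (right), for each gene, in 6 globin-rich (red) and 6 globin-poor (blue) libraries and, on the left, in all 12 (black). On the left all red and black points are below 0 and the blue ones lie between -0.41 and 0.07; on the right the red points of all genes but Pdgfb are above 0, and no point passed an adjusted p under 0.05.

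Within a tissue label the kinds were unevenly shared between genotypes. Of the blood-labelled libraries, 1 of 3 WT and 2 of 3 KO were globin-rich, and of the spleen-labelled ones 2 of 3 WT and 1 of 3 KO. The members' median log2 fold change of KO over WT was 0.70 in blood-labelled and -1.84 in spleen-labelled libraries, following those numbers in sign. With globin kind as a term the medians were -0.33 and -0.30, and all 10 members were below 0 in each. In the fits without that term, edgeR called 0 members and 0% of genes under either label at an adjusted p under 0.05. In blood-labelled libraries 27 genes had an unadjusted p under 0.05, and in spleen-labelled ones 359. DESeq2 and limma-voom also called 0. In simulated counts, the edgeR fit called 0% of genes changed 8-fold under the blood label and 24.2% under the spleen label. These zeros therefore do not show an absence of change. The medians moved most without blood WT 01, to 3.51, and without spleen KO 03, to -5.23.

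Whether the KO difference itself varied was tested by interaction terms over the 12 libraries. Between tissue labels the members' median interaction was -0.12 on the log2 scale, and between globin kinds it was -0.33, against -0.20 over all genes. The second ranged from -0.76 without blood WT 01 to 0.19 without spleen WT 01, and the first was 0.53 without blood WT 01. The largest for a member was that of Vwf between kinds, -0.90 ± 0.52 (adjusted p 0.690). The fit of the interaction with kind also held the same tissue effect for both kinds, and the part of the label imbalance in it was not tested. At an adjusted p under 0.05, edgeR called 0 of 10 members and 0% of genes in either, while the unadjusted p was under 0.05 for 247 and 1476 genes. DESeq2 called 8 and 47 genes and limma-voom 0 in either, none a member. A difference between tissue labels or between kinds in the response to NM1 loss was therefore not detected for any member, which does not show that the responses were alike.

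From the 4 granule gene lists (64 genes: other alpha cargo, alpha-granule formation, dense granules and secretion), 63 were tested over the 12 libraries and none was called for genotype. Of these, 23 had a log2 fold change above 0 and 40 below, and 4 had an unadjusted p under 0.05. The smallest p-values among the other cargo genes were those of Pros1, at -0.48 ± 0.14, and Serpine2, a protease inhibitor, at -0.77 ± 0.23 (adjusted p 0.899 for both).

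The members other than Pdgfb varied together over the 12 libraries. After each kind's mean had been subtracted from log2(CPM + 1), Pearson's r over the 12 libraries between pairs of members other than Pdgfb ran from 0.46 to 0.95, with a median of 0.80 over 36 pairs. Pairs with Pdgfb ran from -0.29 to 0.09. Against the members' mean profile, r was 0.96 for Ppbp, 0.96 for Slc6a4 and 0.95 for Treml1, 0.80 for Thbs1 and 0.05 for Pdgfb. Each member is part of that mean, which raises its r, so these values cannot be set against those of other genes. The 5 other genes most like that profile, of 9096 with a mean of at least 10 CPM, were Ptgs1 (0.969), Rbpms2 (0.967), Capn3 (0.967), Alox12 (0.965) and Mpig6b (0.965). Ptgs1 and Alox12 encode the cyclooxygenase and the lipoxygenase of platelets, and Mpig6b an inhibitory receptor of megakaryocytes. Without subtracting the kinds' means they were Itgb3 (0.996), Rbpms2 (0.996), Slc2a3 (0.995), Alox12 (0.994) and Gp5 (0.994). Within the globin-poor kind the pattern was looser for some members. There Vwf had an r of 0.28 with the summed platelet markers and -0.53 with the endothelial ones, Selp 0.50 and Nrgn 0.53 with the platelet markers, over 6 libraries. In globin-rich libraries the same 3 genes had 0.87, 0.98 and 0.96 with the platelet markers. Ppbp, Mmrn1, Treml1, Pf4, Slc6a4 and Thbs1 stayed at 0.82 to 0.92 with the platelet markers in globin-poor libraries. Of these, Thbs1 (0.71) and Mmrn1 (0.90) had the lower r in globin-rich libraries. With the endothelial markers, Vwf alone had an r below 0 in globin-poor libraries. The other members ran there from 0.22 for Pf4 to 0.86 for Pdgfb, with Thbs1 at 0.76 and Slc6a4 at 0.67. The points share library, depth and cell mixture, so these r values describe the 12 libraries only.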

How the data were processed

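The authors deposited 1 table of gene counts per library, keyed by Ensembl identifier. Per the submitters' processing notes the build was GRCm38 and the tools were HISAT2 2.0.4, HTSeq, Trimmomatic 0.36, SAMtools 0.1.19 and FastQC; their settings, strand included, are not given in the sources used here. Libraries were made from 500 ng of total RNA with NEBNext Ultra II, per the labels' protocols. Symbols came from GENCODE vM21 (46005 of 46603 identifiers matched). The 8 globin genes were left out of totals and fits, and a library was globin-rich where they held over 25% of its counts. Members' raw counts were at least 15, and all 10 members passed the low-count filter in every fit. The limit that a count of 0 allows (3 counts) was 0.515 to 0.733 CPM in globin-rich and from 0.109 to 0.138 CPM in globin-poor libraries. No 2 libraries were duplicates. Counts were tested with edgeR 4.0.16 (TMM, filterByExpr, robust quasi-likelihood, Benjamini-Hochberg over all genes tested) in R 4.3.3; a gene was called at an adjusted p under 0.05. Values per length used merged exon length. The code was tested on simulated data. Of genes changed 2-fold there, the genotype fit called 10.4% in globin-rich libraries, and 23.9% in globin-poor ones and over all 12. Alternatives were DESeq2 1.42.0, limma-voom (limma 3.58.1), other scaling, globin kept, no filter, other terms, a replicate block, and each library left out in turn. The text names all 10 members, up to 2 genes per granule list with the smallest p for genotype over 12 libraries, and the 5 genes most like the members' profile; genes of the lists whose levels are given for globin kinds were chosen after their values were seen. The members and lists were chosen with earlier results of these data known.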

Additional observations from a re-analysis of the deposited data

How the results depend on the processing

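With globin kept, the members' median ratio between globin kinds fell from 15.8 to 7.58. Library size scaling moved the median of all genes in the globin-rich genotype fit from -0.03 to 0.22; relative to it the members' median was -0.51 with TMM and -0.48 without. That relative value was 0.12 without a filter, where the median covers many more low genes, and -0.096 without spleen KO 03. Numbers of genes called depended on the tool and the filter. For genotype in globin-rich libraries they were 28 with library size scaling, 49 without a filter and 11 with DESeq2; in globin-poor ones 4 without a filter and 9 with DESeq2; over all libraries 55 without a filter and 1 with DESeq2. For tissue label in globin-rich libraries 13 genes were called with library size scaling, 233 without a filter, 221 with DESeq2 and 133 with limma-voom, of which 6, 5 and 4 were members in the last 3. In globin-poor ones, against 9, they were 5 with DESeq2 size factors, 4 with library size, 5 with globin kept, 1391 without a filter, 2840 with DESeq2, 1341 with limma-voom and 15 with 1 term. The interaction with tissue label had 1 with library size, 9 without a filter and 8 with DESeq2, that with kind 98 without a filter and 47 with DESeq2. The cause was not tested.

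The members' median for genotype in globin-rich libraries was -1.09 without the tissue term, and that for tissue label in globin-poor ones 0.41 with library size, where all genes had 0.33. Signs also turned. In the blood-label fit 9 members were above 0, and 0 with globin kind as a term. In the interaction with tissue label 3 were above 0, and 9 with library size, where all genes had a median of 0.35. In the interaction with kind 1 was above 0, and 4 with library size. For genotype, Vwf was -0.13, Ppbp 0.051 and Pdgfb 0.064 with 1 term, Vwf -0.0099 and Slc6a4 -0.064 with library size; Pdgfb was 0.0031 over all libraries without a filter. For tissue label, Pf4 was 0.28 with library size, 0.0027 with globin kept and 0.0064 with limma-voom, Selp 0.16 with library size, and Nrgn 0.0053 with DESeq2 size factors, 0.31 with library size, 0.030 with globin kept, 0.024 without a filter, 0.0052 with DESeq2 and 0.036 with limma-voom. In globin-rich libraries Pdgfb was 0.025 with limma-voom and 0.11 with 1 term.

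No label ties a replicate number to a mouse. Over all same-numbered pairs, r of residuals with kind as a term ran from -0.72 to 0.58. Between blood and spleen of the same number and genotype it was 0.58 for WT 01 and 0.060 for WT 04. It was -0.18 for KO 03 and -0.71 for KO 04. So few values of mixed sign do not settle whether such libraries share a mouse. With the replicate block the genotype values in globin-poor libraries were 0.11 for Pf4, 0.024 for Ppbp, 0.13 for Treml1 and 0.13 for Nrgn, and the tissue values 0.34 for Pf4, 0.012 for Selp and 0.11 for Nrgn. Over all libraries the block gave a members' median of -0.58 and called 0 genes. It moved the median to 1.66 under the blood and -2.78 under the spleen label, to 0.37 for tissue label in globin-poor libraries, and to 0.31 and -0.84 for the interactions with tissue label and kind, with no member called. In globin-rich libraries it left no residual degrees of freedom and was not run.

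Single libraries set many of these values. Without blood WT 01, genes called were 394 for genotype and 272 for tissue label in globin-rich libraries; without spleen KO 01 they were 2541, and without blood KO 04 645, for tissue label in globin-poor ones; without blood KO 02 they were 47 for the interaction with kind. The interaction with tissue label had a median of 0.53 without blood WT 01, and that with kind ranged from -0.76 without blood WT 01 to 0.19 without spleen WT 01. With each library left out in turn, genes called ranged from 0 to 394 for genotype in globin-rich libraries (members 0 to 2, median -0.90 to -0.15, Slc6a4 -1.15 to 0.064), 0 to 1 over all libraries (Pdgfb -0.24 to 0.045), 0 to 47 for the interaction with kind, 0 to 272 for tissue label in globin-rich libraries (members 0 to 2, Pdgfb -0.22 to 0.15, Thbs1 -0.30 to 1.36) and 1 to 2541 in globin-poor ones. Medians ranged from 0.19 to 3.51 for the blood label, -5.23 to -1.28 for the spleen label and -0.65 to 0.53 for the interaction with tissue label. For genotype in globin-poor libraries the median ranged from -0.65 to 0.30, Pf4 from -0.70 to 0.35, Ppbp -0.81 to 0.71, Vwf -0.22 to 0.33, Selp -0.84 to 0.20, Mmrn1 -1.01 to 0.47, Treml1 -0.42 to 0.26, Nrgn -0.31 to 0.087, Pdgfb -0.25 to 0.14 and Slc6a4 -0.59 to 0.55. For tissue label there the median ranged from -0.37 to 0.49, Pf4 from -0.54 to 0.54, Ppbp -0.59 to 0.96, Selp -0.62 to 0.44, Mmrn1 -0.46 to 1.06, Treml1 -0.29 to 0.42 and Nrgn -0.18 to 0.21. With a pseudocount of 5, 4 of the 5 genes most like the members' profile were the same. Each group of a fit within a kind held 3 libraries, and globin-rich libraries had the lower depth, 4.09 to 5.83 M counts without globin.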

Other observations

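Some genes of granule release were higher in globin-rich libraries. Of 14 secretion genes found, 4 were above in every globin-rich library, where 3.51% of all genes were, and 5 were below, where 49.8% of all genes were. Above were Sytl4 (ratio of mean CPM 33.1), Rab27b (10.5), Stx11 (6.74) and Snap23 (4.12). Rab27b is a granule GTPase and Sytl4 its effector granuphilin, and Stx11 and Snap23 are the membrane SNAREs of platelet release. Those below were the SNAREs Vamp8 (0.261), Stx12 (0.270), Vamp3 (0.371) and Vamp2 (0.427) and Nsf (0.517), which takes SNARE complexes apart. The median ratio of all genes was 0.446, and the share of secretion genes below was no larger than that of all genes. Sytl4 ranged from 21.2 to 79.1 CPM in globin-rich and from 0.827 to 2.16 CPM in globin-poor libraries.

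Of 23 dense-granule genes none was above in every globin-rich library and 10 were below, with a median ratio of 0.528, near the shares and the median ratio of all genes. Slc18a2, the transporter that loads serotonin into granules, had a ratio of 2.11 with overlapping libraries, where the serotonin transporter Slc6a4 had 21.1. Cd63, a granule membrane protein of many cell types, was at most 19.6 CPM in globin-rich and at least 79.9 CPM in globin-poor libraries. For genotype over the 12 libraries, the smallest p-values in these lists were those of Snap23 (log2 fold change -0.29 ± 0.13, SE) and Rab27b (-0.45 ± 0.24) for secretion. For dense granules they were those of Bloc1s5 (0.40 ± 0.23) and Rab32 (-0.39 ± 0.23), and for alpha-granule formation those of Vps33b (-0.27 ± 0.20) and Gfi1b (-0.37 ± 0.66). None was called by edgeR, with adjusted p from 0.899 to 0.938.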
